A study of Mus musculus with 40 samples.

Results

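Diffuse and single beta-globin haplotypes were compared in thalassemic mice, all heterozygous for the th3 allele (Hbb th3/+), within bone marrow and within spleen. The members were the 20 RNA-seq libraries labelled th3/+ among 40 in all. They formed 4 groups of 5, and the row names gave the same 10 mouse codes in both tissues, 5 diffuse and 5 single mice. The libraries came from Ter119+ cells, erythroid cells taken with anti-Ter119 beads, of mice labelled C57BL/6J. The study asked how far the haplotypes modify the severity of beta-thalassemia.

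The th3 allele is a deletion of both adult beta-globin genes, so that a th3/+ mouse makes adult beta chains from its intact chromosome, and the haplotype names the genes on that chromosome. All 4 groups carried this allele and none was treated, per the labels. WT libraries of both haplotypes serve below only as a background. The labels gave neither age nor sex. All 10 th3/+ mice had codes of the same series. The table lists adult globin genes alone, so the purity of the Ter119+ cells could not be checked against markers of other cells.

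Haemoglobin needs alpha and beta chains in balance. In beta-thalassemia the beta chains fall short, and free alpha chains damage red cell precursors and red cells. Adult beta chains of the single haplotype come from Hbb-bs and Hbb-bt. Those of the diffuse haplotype come from Hbb-b1 (beta-major) and Hbb-b2 (beta-minor). Hbb-bs and Hbb-b1 are called the first gene here, and Hbb-bt and Hbb-b2 the second gene. Hba-a1 and Hba-a2 encode the adult alpha chain.

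How reads can be divided within a pair depends on its sequence. In mm10 with the GENCODE M21 annotation the coding sequences of Hbb-bs (ENSMUSG00000052305.6, chr7:103826534-103828096, minus strand) and Hbb-bt (ENSMUSG00000073940.3, chr7:103812524-103813996, minus strand) have 444 bases each with the stop codon. They differ at 1 base, C417T, counted from the A of the start codon, with the Hbb-bs base first. The longest run shared by both transcripts has 430 bases, of 628 in Hbb-bs and 703 in Hbb-bt. The 29 bases around the difference are shown because they hold the only coding base that differs between Hbb-bs and Hbb-bt. That base is in capitals.
Hbb-bs: gtggctggagtggcCgctgccctggctca
Hbb-bt: gtggctggagtggcTgctgccctggctca

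The alpha genes Hba-a1 (ENSMUSG00000069919.7, chr11:32283511-32284465, plus strand) and Hba-a2 (ENSMUSG00000069917.7, chr11:32296489-32297298, plus strand) are as close. Their coding sequences of 429 bases differ at C381T, with the Hba-a1 base first, and the longest run shared by both transcripts has 415 bases. The same 29-base view shows that difference.
Hba-a1: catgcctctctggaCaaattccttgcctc
Hba-a2: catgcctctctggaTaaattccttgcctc

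Upstream of their RefSeq starts Hbb-bs and Hbb-bt differ more. The 120 bases before each RefSeq start (GRCm38.p6, minus strand, chr7:103827929-103828048 for Hbb-bs and chr7:103813924-103814043 for Hbb-bt) are shown because the counts of both genes enter each comparison of beta-globin below. The GENCODE genes given above begin further upstream on the minus strand, at 103828096 for Hbb-bs and 103813996 for Hbb-bt. The Hbb-bs window thus lies inside its GENCODE gene, and the Hbb-bt window lies partly inside. Upstream holds here by the RefSeq starts only. Capitals mark 3 motifs searched on both strands. CACCC is the core of the CACCC box, CCAAT gives the CCAAT box its name, and ATATAA is a form of the TATA box, all known from globin promoters. In the Hbb-bt window 2 matches of CCAAT on opposite strands lie end to end.
Hbb-bs: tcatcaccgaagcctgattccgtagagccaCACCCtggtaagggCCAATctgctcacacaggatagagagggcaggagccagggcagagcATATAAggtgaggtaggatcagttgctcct
Hbb-bt: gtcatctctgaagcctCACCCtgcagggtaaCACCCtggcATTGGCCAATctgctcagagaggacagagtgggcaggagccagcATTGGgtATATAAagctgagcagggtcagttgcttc

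In Hbb-bs each motif occurs 1 time, with first bases at -90, -76 and -30 from the RefSeq start. In Hbb-bt CACCC begins at -104 and -89, CCAAT or its reverse complement at -80, -75 and -36, and ATATAA at -29. Among 32851 such windows of RefSeq starts, 31.7% hold CACCC, 21.3% CCAAT and 4.47% ATATAA, so a match is a description and not a binding site. No upstream window or transcript of Hbb-b1 or Hbb-b2 was used. RefSeq gives spans of 1400 bases for Hbb-b1, 1406 for Hbb-bs, 1374 for Hbb-b2 and 1400 for Hbb-bt, so the compared genes differ little in overall length.

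The th3/+ libraries held between 11613844 and 26312760 exon counts over the listed globin genes. The libraries matched their haplotype labels. Hbb-b1 in single libraries took 97.3 to 181 counts per 1000000 beta counts, and Hbb-bs in diffuse libraries 41.3 to 315. The second gene of the haplotype not carried took 169 to 299 per 1000000 beta counts in single and 97.8 to 270 in diffuse libraries. The highest trace, 315 for Hbb-bs, came from the marrow of diffuse mouse BZC1010, against 45.1 to 59.96 in the other 4 diffuse marrow libraries.

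Alpha relative to beta counts was lower on the diffuse haplotype in both tissues. It was measured as alpha exon counts per 100 beta exon counts, each summed over its genes and shared reads. This ratio within a library needs no scaling for depth, but it is not a ratio of molecules, because the genes may differ in length and in how many of their reads are counted. In bulk RNA, fewer cells making beta-globin and less beta-globin RNA per cell cannot be told apart.

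In single marrow the values were 91.3 for mouse BZC998, 100.5 for BZC1001, 75.9 for BZC1005, 78.4 for BZC1008 and 87.4 for BZC1018. In diffuse marrow they were 71.7 for BZC1010, 67.2 for BZC1011, 67.5 for BZC1013, 74.3 for BZC1016 and 72.95 for BZC1024. The highest diffuse library lay under the lowest single library. Only BZC1001 marrow had more alpha than beta counts, 1 of the 20 libraries. The means were 86.7 ± 9.94 on the single and 70.7 ± 3.21 on the diffuse haplotype (SD, n = 5 each). Alpha per beta fell by 18.1% from single to diffuse (95% interval -27.5% to -5.59%, two-sided exact permutation p = 0.00794, adjusted p = 0.00794). No smaller p is possible with 5 libraries against 5.

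In single spleen the values were 72.1 for BZC998, 89.8 for BZC1001, 81.6 for BZC1005, 81.4 for BZC1008 and 78.7 for BZC1018. In diffuse spleen they were 67.6 for BZC1010, 69.4 for BZC1011, 64.0 for BZC1013, 70.8 for BZC1016 and 64.6 for BZC1024. The groups again did not overlap, although the lowest single library, BZC998, lay close to the highest diffuse library, BZC1016. The means were 80.7 ± 6.37 and 67.3 ± 2.96 (SD, n = 5 each), and alpha per beta fell by 16.5% (95% interval -23.5% to -8.44%, exact permutation p = 0.00794, adjusted p = 0.00794). BZC1001 had the highest value of all mice in both tissues. The single libraries spread more widely than the diffuse ones in both tissues, a difference in spread that was not tested.

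**Figure D1:**
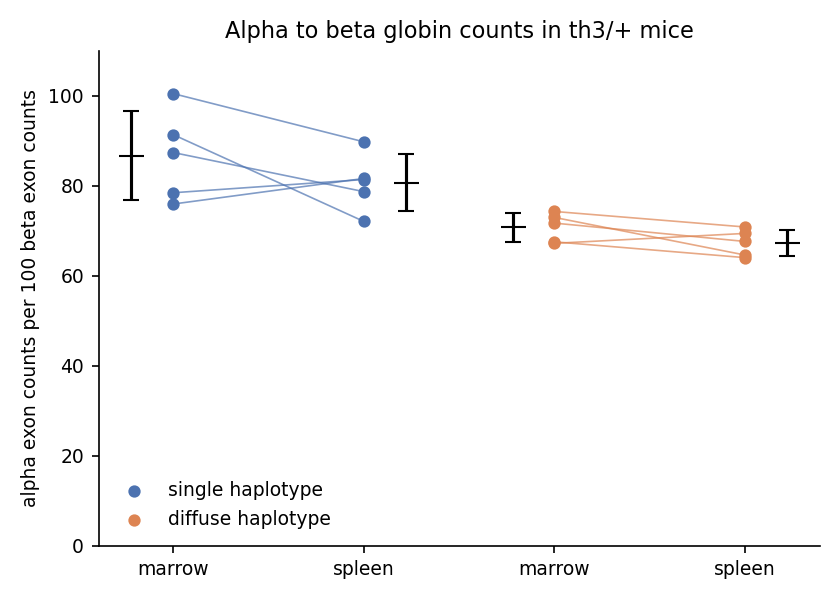
Alpha exon counts per 100 beta exon counts (vertical axis) in the marrow and spleen of th3/+ mice. Points are libraries, lines join the 2 tissues of a mouse, and black bars beside the points are the mean ± SD of 5 libraries. Single libraries span 72.1 to 100.5 and diffuse libraries 64.0 to 74.3, and within each tissue the haplotypes do not overlap.

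The diffuse th3/+ libraries stayed well above WT libraries of both haplotypes. Alpha per 100 beta counts was 39.1 ± 5.99 in WT single and 31.9 ± 4.88 in WT diffuse marrow, and 47.3 ± 4.04 and 34.6 ± 4.53 in WT spleen (SD, n = 5 each). Expressed as beta per alpha counts, the mean diffuse th3/+ library covered 17.5% ± 4.50 of the distance from the mean of single th3/+ to that of WT single mice in marrow (range 12.6% to 22.5%). In spleen it covered 27.6% ± 7.46 (range 18.9% to 36.0%; SD, n = 5 each). These shares are descriptions on the linear scale. Their SD and range reflect the diffuse libraries alone, since the means of both single groups were held fixed. In marrow the SD of beta per alpha counts was 0.0647 in diffuse th3/+, 0.132 in single th3/+ and 0.357 in WT single libraries. Of the 5 WT single mice, 4 had codes of another series than the th3/+ mice.

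The haplotype difference was not shown to depend on the th3 allele. In marrow the log2 difference in alpha per beta, diffuse minus single, was -0.29 in th3/+ and -0.30 in WT mice (residual permutation p = 0.960, adjusted p = 0.966). In spleen it was -0.26 in th3/+ and -0.46 in WT mice, a difference of 0.20 (residual permutation p = 0.0947, adjusted p = 0.284).

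The larger part of the difference lay in the first gene. Hbb-b1 had more uniquely assigned exon counts per alpha count than Hbb-bs in both tissues. In single marrow Hbb-bs per alpha count was 0.707 in BZC998, 0.641 in BZC1001, 0.876 in BZC1005, 0.825 in BZC1008 and 0.745 in BZC1018. In diffuse marrow Hbb-b1 per alpha count was 1.14 in BZC1010, 1.24 in BZC1011, 1.21 in BZC1013, 1.11 in BZC1016 and 1.11 in BZC1024. All diffuse values thus exceeded all single values. Hbb-b1 was 1.54-fold above Hbb-bs in marrow (95% interval 1.32 to 1.77, means 1.16 ± 0.0598 and 0.759 ± 0.0935, SD, n = 5 each, exact permutation p = 0.00794, adjusted p = 0.00794).

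In single spleen Hbb-bs per alpha count was 0.908 in BZC998, 0.740 in BZC1001, 0.821 in BZC1005, 0.821 in BZC1008 and 0.856 in BZC1018. In diffuse spleen Hbb-b1 per alpha count was 1.22 in BZC1010, 1.19 in BZC1011, 1.27 in BZC1013, 1.16 in BZC1016 and 1.27 in BZC1024. The groups did not overlap here either. Hbb-b1 was 1.48-fold above Hbb-bs (95% interval 1.36 to 1.61, exact permutation adjusted p = 0.00794), from means of 1.22 ± 0.0494 and 0.829 ± 0.0613 (SD, n = 5 each).

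The second gene, at a lower level, also had more unique counts per alpha count on the diffuse haplotype. In marrow Hbb-bt per alpha count was 0.197 in BZC998, 0.184 in BZC1001, 0.216 in BZC1005, 0.226 in BZC1008 and 0.198 in BZC1018. Hbb-b2 per alpha count was 0.253 in BZC1010, 0.249 in BZC1011, 0.268 in BZC1013, 0.235 in BZC1016 and 0.263 in BZC1024. All 5 Hbb-b2 values lay above all Hbb-bt values. Hbb-b2 was 1.24-fold above Hbb-bt (1.12 to 1.37), with an exact permutation p and adjusted p of 0.00794, from means of 0.254 ± 0.0129 and 0.204 ± 0.0168 (SD, n = 5 each). In spleen Hbb-bt ranged from 0.1999 to 0.233 with a median of 0.221 and Hbb-b2 from 0.2499 to 0.290 with a median of 0.259. The fold there was 1.20 (95% interval 1.10 to 1.31, n = 5 each, exact permutation p = 0.00794, adjusted p = 0.00794), again without overlap.

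These unique counts leave out far more beta reads on the single than on the diffuse haplotype. Reads shared by Hbb-bs and Hbb-bt took 17.0% to 17.6% of beta counts in single marrow. In single spleen they took 17.7% in BZC998 and 14.6% to 15.6% in the other 4 mice. The corresponding column of the diffuse pair held 0.0055% to 0.0114% of beta counts in all 10 diffuse libraries, and each such column was at 0 in the libraries of the other haplotype. Per alpha count the shared beta reads came to 0.202 ± 0.0227 in single marrow and 0.195 ± 0.0295 in single spleen (SD, n = 5 each), about as much as the unique counts of Hbb-bt.

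Dividing the shared reads in proportion to the unique counts of the pair ended the difference in the second gene and kept that in the first. So divided, Hbb-bt per alpha count was 0.247 ± 0.0205 in marrow and 0.262 ± 0.0169 in spleen, and Hbb-b2 was 0.254 ± 0.0129 and 0.265 ± 0.0173 (SD, n = 5 each). The folds were 1.03 in marrow (95% interval 0.923 to 1.13, exact permutation adjusted p = 0.698) and 1.01 in spleen (0.921 to 1.12, exact permutation adjusted p = 0.770). Both intervals include folds on either side of 1. For the first gene the folds were 1.27 in marrow (1.10 to 1.46) and 1.25 in spleen (1.14 to 1.36), both with an exact permutation adjusted p of 0.0159 and with no overlap.

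Bounds came from giving every shared read to the same gene of the pair. With all shared reads added to Hbb-bs, Hbb-b1 was still above it, by a fold of 1.22 in marrow (95% interval 1.05 to 1.39) and of 1.20 in spleen (1.09 to 1.30), each with no overlap (exact permutation adjusted p = 0.00794). With all of them added to Hbb-bt the second-gene difference turned around, to a fold of 0.627 in marrow (0.559 to 0.704) and 0.638 in spleen (0.569 to 0.717), each with all diffuse libraries below (exact permutation adjusted p = 0.00794). The first-gene difference thus kept its direction under all 3 treatments of the shared reads, and the second-gene difference did not. The second genes would be level if 24.8% of the shared reads in marrow and 22.6% in spleen came from Hbb-bt. Hbb-bt made up 19.8% to 22.3% of the unique counts of its pair in marrow and 20.5% to 21.8% in spleen.

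**Figure D2:**
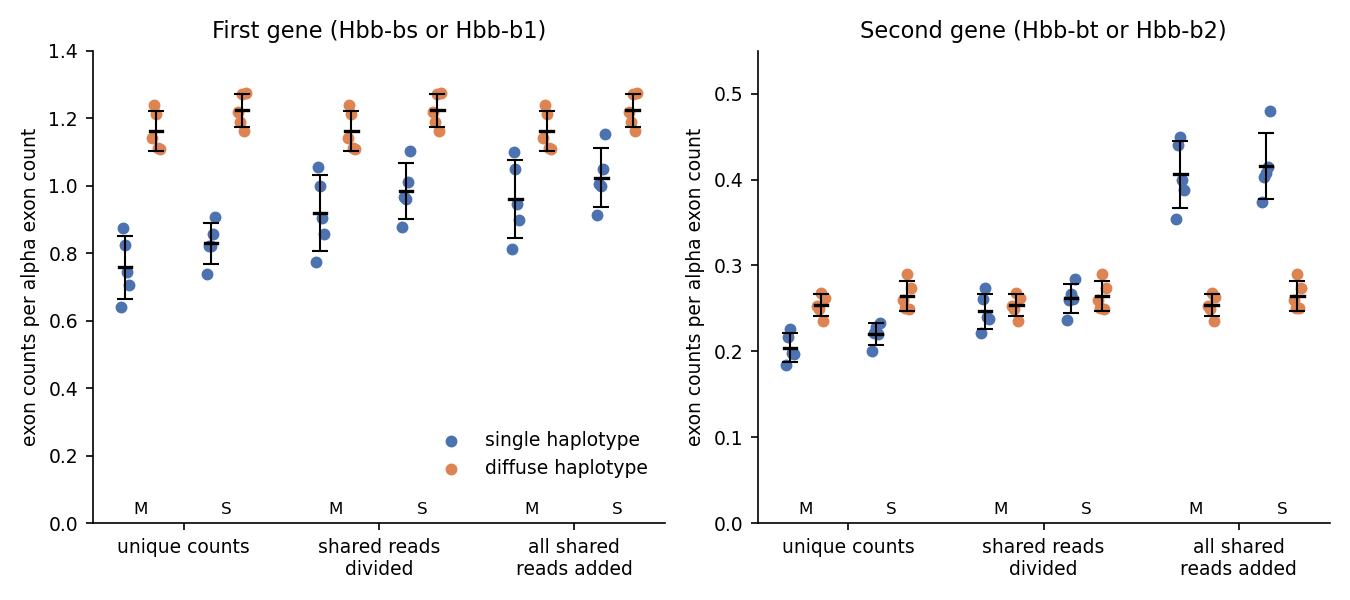
Exon counts per alpha exon count (vertical axes) of the first gene on the left and the second gene on the right, in marrow (M) and spleen (S) of th3/+ mice, with unique counts, with shared reads divided in proportion, and with all shared reads added to the gene. Points are libraries and black bars the mean ± SD of 5. The first gene is higher on the diffuse haplotype under all 3 treatments, whereas the second gene is higher with unique counts, level when reads are divided (0.254 against 0.247 in marrow) and lower when all are added.

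With the proportional division, beta per alpha counts were 1.42 on the diffuse and 1.17 on the single haplotype in marrow, a difference of 0.251. The first gene held 0.244 of it, or 97.3%, and the second gene 0.0068. In spleen the means were 1.49 and 1.25, and the first gene held 0.240 of the difference of 0.243, or 98.7%. The beta sums include the shared reads, so their division enters only the split between the genes. The share of reads that could be assigned differs with the haplotype, so an effect of counting and an effect of haplotype cannot be told apart in that split. Other differences in counting between the haplotypes may enter the sums and were not tested.

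The gene differences were set beside those of WT mice with unique counts. The log2 difference of the first gene per alpha count, diffuse minus single, was 0.62 in th3/+ and 0.62 in WT marrow (residual permutation adjusted p = 0.966), and 0.56 and 0.80 in spleen (adjusted p = 0.284). That of the second gene was 0.32 and 0.27 in marrow (residual permutation adjusted p = 0.966), and 0.26 and 0.40 in spleen (adjusted p = 0.310). On the linear scale the first gene in both tissues and the second gene in spleen differed less between haplotypes in th3/+ than in WT mice (residual permutation adjusted p = 0.0376, 0.00072 and 0.0243). Levels per alpha count were higher in WT mice, for the first gene in marrow 2.71 (diffuse) and 1.76 (single) against 1.16 and 0.759 in th3/+. Equal folds then give larger linear differences in WT by construction, so these linear calls do not show that the haplotype difference depends on the th3 allele. With shared reads divided in proportion, the second gene per alpha count in WT marrow was 0.497 ± 0.0866 (diffuse) and 0.490 ± 0.0459 (single). In WT spleen it was 0.470 ± 0.0428 and 0.429 ± 0.0369 (SD, n = 5 each).

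The make-up of the alpha counts, as distinct from their level, showed no detectable difference between haplotypes. The table holds no gene outside the globins, so higher beta and lower alpha cannot be told apart in the ratios above. Hba-a1 per Hba-a2 count was 1.62 ± 0.0589 in diffuse and 1.64 ± 0.0246 in single marrow, and 1.59 ± 0.045 and 1.58 ± 0.0301 in spleen (SD, n = 5 each). Reads shared by the alpha genes took 30.3% ± 1.58 of alpha counts in diffuse and 31.1% ± 1.06 in single marrow. In spleen they took 30.9% ± 0.978 and 31.3% ± 1.11 (SD, n = 5 each). The log2 odds of a shared alpha read differed by -0.05 in marrow (95% interval -0.20 to 0.08) and -0.03 in spleen (-0.13 to 0.08), with an exact permutation adjusted p of 0.556 in both. In edgeR's quasi-likelihood test with the alpha sum as offset, 40.0% of the 10 tests passed (5 features in 2 tissues), namely the first and second gene in both tissues. The alpha features make up that offset, so their differences balance near 0 by construction. With so few features that share is no background of unrelated genes. The edgeR fit also took the marrow and spleen libraries of a mouse as independent, with no term for the mouse.

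Intron counts come mostly from RNA that is not yet spliced, and their ratio to exon counts of the same gene needs no other gene as a reference. It was expressed per 1000 exon counts. The second gene showed the widest haplotype difference of the listed genes. Hbb-bt introns in single marrow had 0.562 counts per 1000 exon counts in BZC998, 0.971 in BZC1001, 0.709 in BZC1005, 0.755 in BZC1008 and 0.636 in BZC1018. Hbb-b2 introns in diffuse marrow had 2.23 in BZC1010, 2.15 in BZC1011, 2.27 in BZC1013, 2.80 in BZC1016 and 2.37 in BZC1024. The lowest Hbb-b2 value was well above the highest Hbb-bt value. Hbb-b2 thus stood 3.30-fold above Hbb-bt (2.58 to 4.18), with an exact permutation p of 0.00794 and an adjusted p of 0.0159. Spleen values of Hbb-bt ranged from 0.531 to 0.697 and those of Hbb-b2 from 1.84 to 2.40, a fold of 3.59 (3.07 to 4.17, exact permutation p = 0.00794, adjusted p = 0.0159).

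The first gene differed less. Hbb-bs had 0.522 ± 0.148 and Hbb-b1 0.704 ± 0.154 intron counts per 1000 exon counts in marrow (SD, n = 5 each), with overlapping groups and a fold of 1.36 (95% interval 0.903 to 1.95, exact permutation p = 0.103, adjusted p = 0.138). These ratios use unique exon counts, which leave out more reads on the single haplotype. With shared exon reads divided in proportion and intron counts left as they were, the marrow difference passed the threshold, as given further below. Spleen values of Hbb-bs were 0.349 in BZC998, 0.571 in BZC1001, 0.472 in BZC1005, 0.426 in BZC1008 and 0.388 in BZC1018. Those of Hbb-b1 were 0.677 in BZC1010, 0.946 in BZC1011, 0.768 in BZC1013, 0.526 in BZC1016 and 0.524 in BZC1024. There 3 of 5 diffuse libraries lay above all single libraries, and the fold was 1.54 (1.11 to 2.20, exact permutation p = 0.0238, adjusted p = 0.0381). That spleen call was lost without any of 7 of the 10 mice, at log2 differences of 0.50 to 0.65. These were the single mice BZC998, BZC1005, BZC1008 and BZC1018 and the diffuse mice BZC1010, BZC1011 and BZC1013 (exact permutation adjusted p 0.0508 to 0.0762).

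Over all beta genes the ratio was 1.01 ± 0.091 on the diffuse and 0.524 ± 0.135 on the single haplotype in marrow, and 0.955 ± 0.179 and 0.451 ± 0.0739 in spleen (SD, n = 5 each). The folds were 1.96 (95% interval 1.49 to 2.57) and 2.11 (1.66 to 2.74), each with no overlap (exact permutation p = 0.00794, adjusted p = 0.0159). The alpha genes in the same libraries gave no such difference. Alpha introns had 1.35 ± 0.285 counts per 1000 exon counts in diffuse and 1.56 ± 0.357 in single marrow, and 1.30 ± 0.268 and 1.39 ± 0.100 in spleen (SD, n = 5 each). The folds were 0.872 (0.620 to 1.23) and 0.922 (0.745 to 1.14), with exact permutation adjusted p of 0.421 in both tissues.

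**Figure D3:**
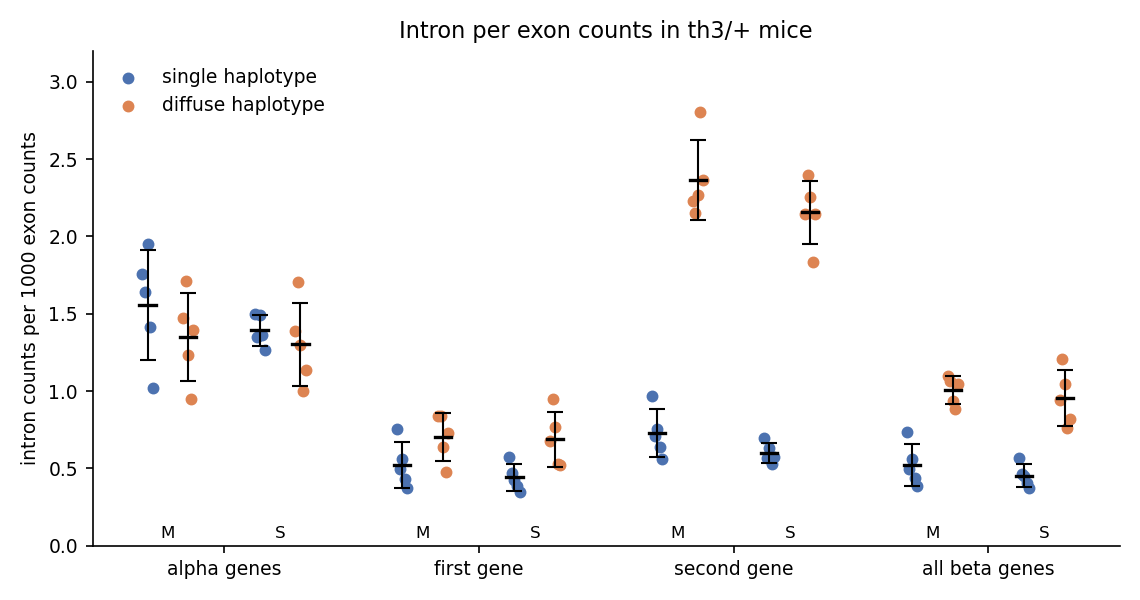
Intron counts per 1000 exon counts (vertical axis) of the alpha genes, the first gene, the second gene and all beta genes in marrow (M) and spleen (S) of th3/+ mice. Points are libraries and black bars the mean ± SD of 5. Hbb-b2 of the diffuse haplotype stands at 1.84 to 2.80, above all Hbb-bt libraries at 0.531 to 0.971, while alpha libraries of both haplotypes overlap.

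Intron counts of the beta genes were also set against alpha intron counts, a comparison chosen after the intron counts had been seen. Beta intron counts per alpha intron count in single marrow were 0.415 in BZC998, 0.417 in BZC1001, 0.3997 in BZC1005, 0.366 in BZC1008 and 0.355 in BZC1018. In diffuse marrow they were 1.04 in BZC1010, 0.928 in BZC1011, 1.13 in BZC1013, 1.26 in BZC1016 and 1.03 in BZC1024. The single libraries lay close together, and every diffuse library was above them. The fold was 2.75 in marrow (95% interval 2.40 to 3.16) and 2.74 in spleen (2.45 to 3.05), each with an exact permutation p and adjusted p of 0.00794. For exon counts the corresponding fold of beta per alpha was 1.22 in marrow (1.06 to 1.38).

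Both genes of the pair took part. Hbb-b1 introns were 2.40-fold above Hbb-bs introns per alpha intron count in marrow (95% interval 2.14 to 2.69) and 2.47-fold in spleen (2.11 to 2.86). Hbb-b2 introns were 4.70-fold above Hbb-bt introns in marrow (3.52 to 6.50) and 4.67-fold in spleen (3.78 to 5.59). All 4 had an exact permutation p and adjusted p of 0.00794. Intron counts were small beside exon counts, with 7117 to 14339 beta intron counts in diffuse and 2347 to 7661 in single libraries. Shared intron reads were 8.41% to 11.1% of beta intron counts in single libraries and 0.376% to 0.898% in diffuse libraries. Of the alpha intron counts, shared reads made up 80.7% to 85.6% in single and 78.7% to 84.8% in diffuse libraries. The alpha intron sum used as the reference includes them. Intron lengths and the alignment of intron reads on the diffuse haplotype were not available for a correction, so a difference in counting and a difference in unspliced RNA cannot be told apart.

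**Figure D4:**
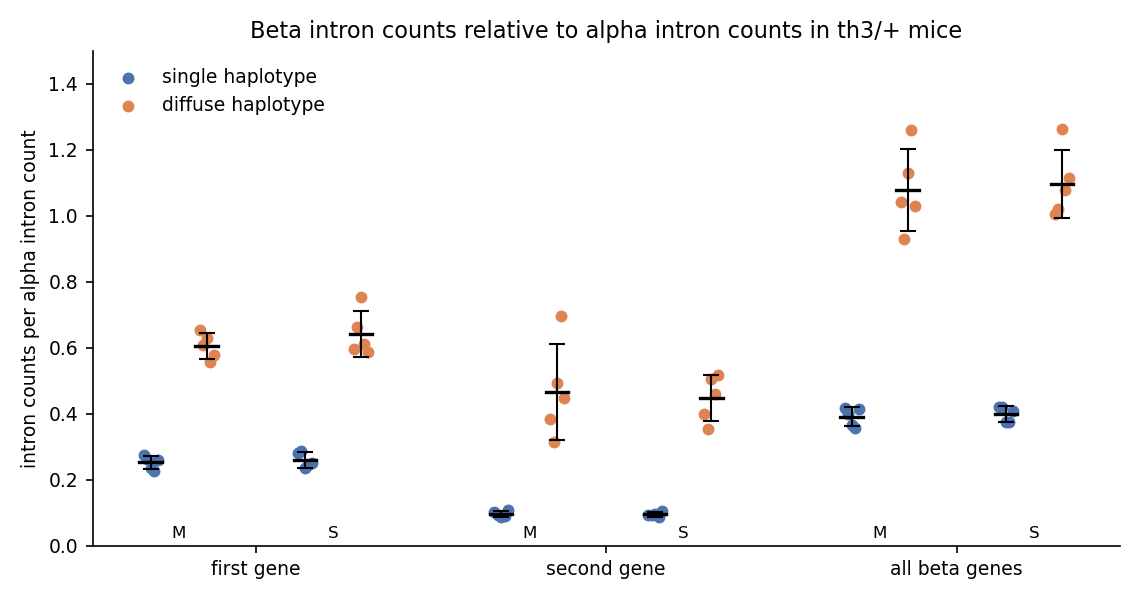
Intron counts of the first gene, the second gene and all beta genes per alpha intron count (vertical axis) in marrow (M) and spleen (S) of th3/+ mice. Points are libraries and black bars the mean ± SD of 5. Diffuse libraries lie above single libraries in every comparison, from 0.928 to 1.26 against 0.355 to 0.421 for all beta genes.

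No haplotype difference was shown to depend on the tissue. The spleen minus marrow value of each mouse was compared between haplotypes on the log2 scale. For alpha per beta it was -0.07 in diffuse and -0.10 in single mice, a difference of 0.03 (95% interval -0.19 to 0.24, n = 5 each, exact permutation p = 0.762, adjusted p = 0.762). For the first gene per alpha count the difference was -0.06 (-0.28 to 0.18) and for the second gene -0.05 (-0.16 to 0.06). For intron per exon counts it was 0.08 (-0.25 to 0.37) in the alpha and 0.10 (-0.20 to 0.42) in the beta genes. The exact permutation adjusted p of these 4 was 0.724, and the intervals do not exclude moderate tissue differences. With unique counts the second gene per alpha count was higher in spleen than in marrow in 5 of 5 diffuse and 5 of 5 single mice. With shared reads divided in proportion it was higher in spleen in 5 of 5 diffuse and 3 of 5 single mice.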

How the data were processed

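The deposited table gave raw read counts per adult globin gene, for exons and introns, with columns for reads not divided within a pair, as the column names were read. Per the submitters' processing notes STAR 2.7.9a, STAR 2.5.3a, SAMtools, HTSeq and mm10 were used, without stated roles. A stranded total RNA kit was used, per the labels' protocols. The sources used here state neither strand setting nor treatment of multiple alignments.

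The HBA to HBB ratio in the authors' deposited table is the quotient after intron counts are subtracted from exon counts. Their deposited percent of intron over exon counts and their deposited fraction of Hbb-b2 equal values recomputed from the counts. These columns served only as checks.

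Row names gave genotype, haplotype, tissue and mouse, and no replicate number. No 2 libraries had identical counts. The 5 mice of a group have different codes, and nothing else was known of their origin.

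Log2 ratios, or log2 odds for shared alpha reads, were compared with two-sided exact permutation tests over 252 splits, with 95% intervals from inverting the test. P-values were adjusted by Benjamini-Hochberg over 2 tests of alpha per beta, 4 of genes per alpha count, 2 of shared alpha reads, 8 of intron per exon counts, 6 of beta per alpha introns, 5 of tissue and 6 of genotype, with 0.05 as threshold. Genotype dependence used 100000 permutations of residuals of the additive model. EdgeR and DESeq2 served as alternatives with genes aligned by role, since few genes were listed. All listed genes are named by rule. The members, measures and lists were chosen with earlier results of these data known. Tests were checked on simulated data. Software was R 4.3.3 with DESeq2 1.42.0, edgeR 4.0.16 and limma 3.58.1, and Python 3.11.15 with scipy 1.17.1, pandas 2.3.3, numpy 2.4.6 and matplotlib 3.10.9. Counting error is small at these depths beside the spread between mice, and PCR copies were not identified.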

Additional observations from a re-analysis of the deposited data

Results flagged for a closer look

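In 6 of 92 groups of 5 th3/+ libraries the most extreme library stood apart from the other 4 by Dixon's 95% criterion, where chance flags about 1 in 20. Mouse BZC1010 had 314.5 Hbb-bs counts per 1000000 beta counts in diffuse marrow, against 45.1 to 59.96 in the others. BZC1013 had an Hbb-b2 share of 18.6% of the unique pair counts in diffuse spleen, against 17.4% to 17.7%. BZC998 had 0.246 shared beta reads per alpha count in single spleen, against 0.174 to 0.193. BZC1008 had 1.64 Hba-a1 counts per Hba-a2 count in single spleen, against 1.56 to 1.58. In single marrow, shared reads were 85.6% of alpha intron counts in BZC1008, against 82.9% to 83.2%, and 8.41% of beta intron counts in BZC1001, against 10.01% to 10.4%.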

How the results depend on the processing

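Of 556 alternative values for 33 results, 541 kept their side of the threshold, and those among them that passed it kept their direction. Where neither the main nor the alternative value passed, a change of sign was not counted. Dividing shared beta reads in proportion ended the second-gene calls (log2 differences 0.0414 in marrow and 0.0173 in spleen), and giving them all to Hbb-bt turned them around (-0.67 and -0.65). The same division brought first-gene intron per exon counts in marrow past the threshold (0.72, exact permutation adjusted p = 0.0212), because it adds exon counts almost only to the single haplotype. On the linear scale the genotype difference of the first gene per alpha count was -0.54 in marrow, with a reversed sign, and -0.67 in spleen. That of the second gene in spleen was -0.0706. All 3 passed there (residual permutation adjusted p = 0.0376, 0.00072 and 0.0243). Equal folds on higher WT levels give larger linear differences by construction.

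Leaving out 1 mouse at a time, the log2 difference of first-gene intron per exon counts in spleen ranged from 0.50 to 0.72, and 7 of 10 values missed the threshold. Every other result kept its side of the threshold. Alpha per beta ranged from -0.33 to -0.23 in marrow and from -0.30 to -0.22 in spleen. With edgeR and the alpha sum as offset, the first-gene log2 differences were 0.61 and 0.56 and the second-gene ones 0.31 and 0.26. No paired analysis was possible because the haplotypes were compared between different mice and the rows carry no replicate numbers, so the planned fit with the replicate number as a block was not run. The tissues of a mouse were paired by its code in the tissue comparison. Second-gene intron counts of 612 to 6070 limit the precision of the intron ratios.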

Other observations

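Intron counts in WT mice gave the same order of the haplotypes as in th3/+ mice. Beta intron counts per alpha intron count were 0.717 to 0.815 (median 0.747) in WT single and 1.63 to 2.20 (median 2.00) in WT diffuse marrow, with 5 libraries each. In spleen they were 0.804 to 0.984 and 2.01 to 4.99, without overlap in either tissue. These spleen ratios rested on 2804 to 7193 alpha intron counts in WT single and only 641 to 10769 in WT diffuse libraries. Hbb-b2 introns had 2.51 to 3.00 counts per 1000 exon counts in WT diffuse marrow, and Hbb-bt introns 0.820 to 1.14 in WT single marrow. These values are descriptions and were not tested.

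Among single th3/+ mice, BZC1001 combined the highest alpha per beta count in both tissues with the highest Hbb-bs and Hbb-bt intron per exon counts, at 0.756 and 0.971 per 1000 in marrow and 0.571 and 0.697 in spleen. BZC998 fell from 91.3 alpha per 100 beta counts in marrow to 72.1 in spleen, whereas BZC1005 and BZC1008 were slightly higher in spleen.

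The trace of Hbb-b2 in libraries of single mice differed between genotypes. It took 217 to 299 counts per 1000000 beta counts in th3/+ single marrow and 11.1 to 26.4 in WT single marrow, without overlap. In spleen the values were 169 to 232 and 42.1 to 203. The trace of Hbb-b1 in the same marrow libraries overlapped, at 97.3 to 147 in th3/+ and 114 to 169 in WT mice. In single spleen the Hbb-b1 trace went the other way without overlap, at 140.1 to 181 in th3/+ and 255 to 944 in WT mice. Of the 5 WT single mice, 4 had codes of another series, and the part of the code series in these differences was not tested.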
